A study of Mus musculus with 4 samples.

Results

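The nuclear genes of the mitochondrial respiratory chain were followed in mouse neutrophils that lacked or carried Srf, the gene of serum response factor. The genes were taken by name from the authors' deposited gene table, as every tested symbol that starts with Nduf, Sdha to Sdhd, Uqcr, Cox4 to Cox8 or Atp5. This gave 88 genes of the 12634 that the authors tested, among 23284 genes in the table. A further 4 matched the names and were not tested: Cox7b2, Cox8b and Cox8c were listed at 0 FPKM in both genotypes, and Ndufa4l2 at 0.0131 FPKM in Srf KO and 0 in WT. Of the 88, 78 encode structural subunits: 36 of complex I, 4 of complex II, 8 of complex III, 15 of complex IV and 15 of complex V. The other 10 are assembly factors and genes that only share a name stem, such as Cox4nb, which lies beside Cox4i1 and belongs to a complex of the endoplasmic reticulum. Ndufa4 was placed in complex IV, where its protein is now assigned.

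The respiratory chain sits in the inner mitochondrial membrane. Complexes I and II pass electrons from NADH and succinate to ubiquinone, complex III passes them on to cytochrome c and complex IV to oxygen, and complex V, the ATP synthase, makes ATP from the proton gradient that complexes I, III and IV build. All complexes but II combine nuclear and mitochondrially encoded subunits, and only nuclear ones are described here. Mature neutrophils have few mitochondria and make most of their ATP by glycolysis.

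RNA came from 2 Srf KO samples and 2 WT samples of bone marrow neutrophils that were sorted as mature cells with high Gr1, high 7/4 and high side scatter (SSC). The labels name the genotype as Srf KO or WT and do not give the deleted exons, a Cre line, age or sex, nor whether the samples of a genotype are separate animals. Each genotype has 1 pooled value per gene in FPKM, fragments scaled to transcript length and to the mapped fragments, so no value per sample, no spread between samples and no read depth can be given. Each log2 fold is Srf KO over WT, the ± after it is a standard error that follows from the deposited fold and test statistic, and a gene is called where the authors' q-value, a Benjamini-Hochberg adjusted p from the Cufflinks difference test, is at most 0.05.

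The targeted gene followed its label. Srf had 0.439 FPKM in Srf KO and 13.7 FPKM in WT in the authors' deposited table, 31.3-fold lower in Srf KO. Of the neutrophil markers 9 were tested, with 1 called higher and 5 lower and a summed level of 30918 FPKM in Srf KO and 42384 FPKM in WT; Camp, Ltf, Ngp, S100a8 and S100a9 held too many reads for the authors' test. Markers of other cells were also present, most of them higher in Srf KO. Their summed level was 102 FPKM in Srf KO and 44.8 FPKM in WT for T and NK cells (7 of 8 called higher), 129 and 90.3 for B cells (2 of 6), 263 and 173 for erythroid cells (5 of 8), 48.7 and 6.04 for megakaryocytes and platelets (5 of 7, Gp6 at 0 in WT), and 1752 and 1350 for monocytes and macrophages (5 of 9 higher, 3 lower). It was 117 FPKM in Srf KO and 54.9 FPKM in WT for eosinophils, basophils and mast cells (5 of 5 called higher), 22.0 and 11.1 for progenitors (3 of 3), and 345 and 206 for proliferation genes (4 of 5). Their part in the results below was not tested. In pooled RNA from a sorted population, fewer cells of a type and less RNA per cell cannot be told apart.

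The respiratory chain genes that were called all lay on the side of Srf KO. By the authors' deposited table, 27 of the 88 were called higher in Srf KO (30.7%) and 0 were called lower, where the background over all tested genes was 17.7% higher, 17.8% lower and 35.5% in either direction. At a q-value of at most 0.01, 15 were higher and 0 lower (background 10.8% and 13.1%), and at 0.10, 35 and 0 (background 22.5% and 20.6%). With a 1.5-fold minimum 19 were higher and 0 lower (background 15.9% and 14.8%), and with folds centred on all tested genes 20 and 0 (background 14.5% and 20.5%). Among genes with at least 1 FPKM in 1 genotype the count was 27 and 0 (background 17.1% and 20.6%), and with at least 5 FPKM 25 and 0 (background 15.5% and 25.7%). At an unadjusted p under 0.05 the same Cufflinks test gives 36 higher (40.9%) and 0 lower, against 23.3% higher and 21.2% lower over all tested genes, which are also the shares to set beside the unadjusted counts given below. The median log2 fold was 0.32 over the 88 genes, against 0.08 over all tested genes. Single folds ran between -0.87 and 2.48, with 73 genes above 0 and 15 below. The smallest absolute log2 fold called among the 88 was 0.46. Of the uncalled genes above 0, 38 lay under that fold and 8 above it. The median standard error was 0.20 over the 88 and 0.24 over all tested genes, so the shares called are not at like precision.

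The shift is modest in size and coincides with transcript length. The median transcript of the 88 genes was 760.5 bases long, against 2690 for all tested genes, and short transcripts as a whole were called higher in Srf KO more often than lower. Of 1250 tested genes with a transcript of 1000 bases or less, 23.6% were called higher and 5.20% lower, with a median log2 fold of 0.38. Among the 54 subunit genes this short, 18 (33.3%) were called higher and 0 lower, with a median of 0.36. Their median level was 121 FPKM in Srf KO and their median standard error 0.20. For the 1250 these were 10.5 FPKM and 0.31, so the shares called are not at like precision. For longer transcripts the subunit genes had 6 of 24 called higher and 0 lower with a median of 0.14, against 17.1% higher, 19.4% lower and a median of 0.04 over 11229 tested genes. Once the running median at each transcript length was subtracted, 7 of the 27 were still called higher (Ndufa5, Ndufb2, Ndufv2, Ndufab1, Cox5a, Atp5s and Ndufaf4), Ndufa7, Uqcr11 and Cox7a2l were called lower, and the median log2 fold of the 88 was 0.01; the background was then 14.5% higher and 18.5% lower. For genes such as Ndufab1 (3479 bases), Sdhc (3171 bases) and Ndufa10 (2020 bases) that length reaches past the locus in the deposited table. Inside the locus the same transcripts have 800, 1179 and 1209 bases. With lengths counted inside the locus, an alternative chosen after seeing the data, 5 of the 27 were still called higher, without Ndufab1 and Cox5a, the same 3 genes were called lower, and the median was 0.01 (background 14.2% and 18.5%). With the trend on expression level subtracted as well as the first length, 20 of the 27 were still called higher. In all 22 were then called higher and 0 lower, with a median of 0.29 (background 12.7% higher and 15.2% lower). With the length inside the locus 19 were called higher and 0 lower, without Ndufab1, Sdhc and Ndufa10 (background 12.5% and 15.2%). The median of the group thus depends on how length and level are treated.

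**Figure D1:**
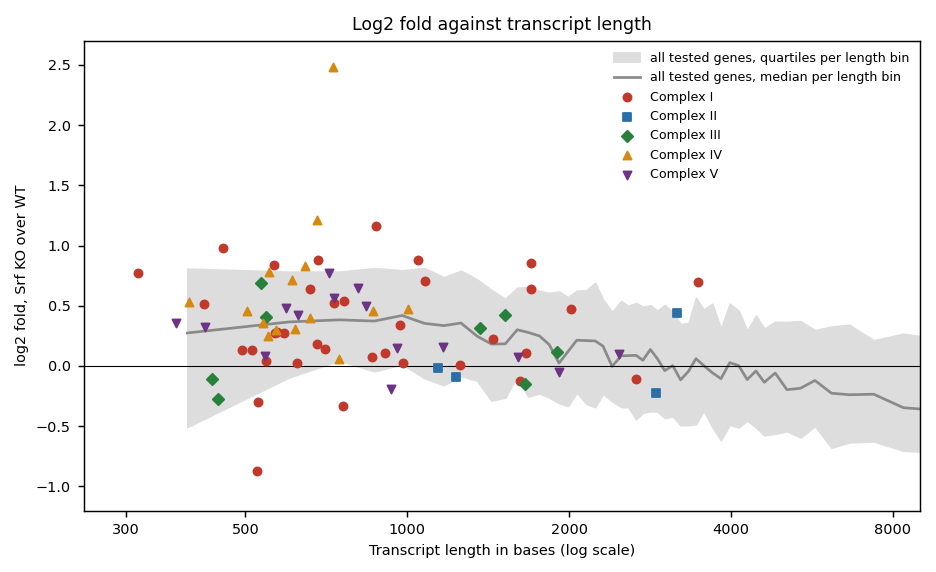
Log2 fold (Srf KO over WT, vertical axis) against transcript length in bases (logarithmic horizontal axis) for each subunit gene, with the median (line) and quartiles (band) of all tested genes per length bin. The subunit genes cluster at the short end, where that line lies above 0: the median log2 fold is 0.36 for the 54 subunits of 1000 bases or less and 0.38 for all 1250 tested genes this short.

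Subunit transcripts were abundant, and at high level the direction differed from that of other genes. There were 34 subunit genes at 100 FPKM or more on average, of which 11 were called higher and 0 lower with a median log2 fold of 0.31. Over all 722 tested genes at that level, 19.7% were called higher and 30.5% lower, with a median of -0.11. These groups are not matched for length: the median transcript was 624 bases for the 34 and 1579 for the 722. Their median log2 folds after the length adjustment were -0.01 and -0.31. Summed over its subunits, complex I had 2745 FPKM in Srf KO and 2290 FPKM in WT, 1.20-fold; complex III had 808 and 669 FPKM, 1.21-fold; complex IV had 2589 and 2002 FPKM, 1.29-fold; and complex V had 3268 and 2659 FPKM, 1.23-fold. Complex II stood at 222 FPKM in both genotypes. Complexes I, III, IV and V had larger sums in Srf KO, and complex II did not. The complexes are not matched for length either. Their median transcripts were 745 bases in complex I, 955 in III, 618 in IV and 809 in V, against 2065.5 in complex II. No test between complexes was made, since genes of 1 complex are not replicates.

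**Figure D2:**
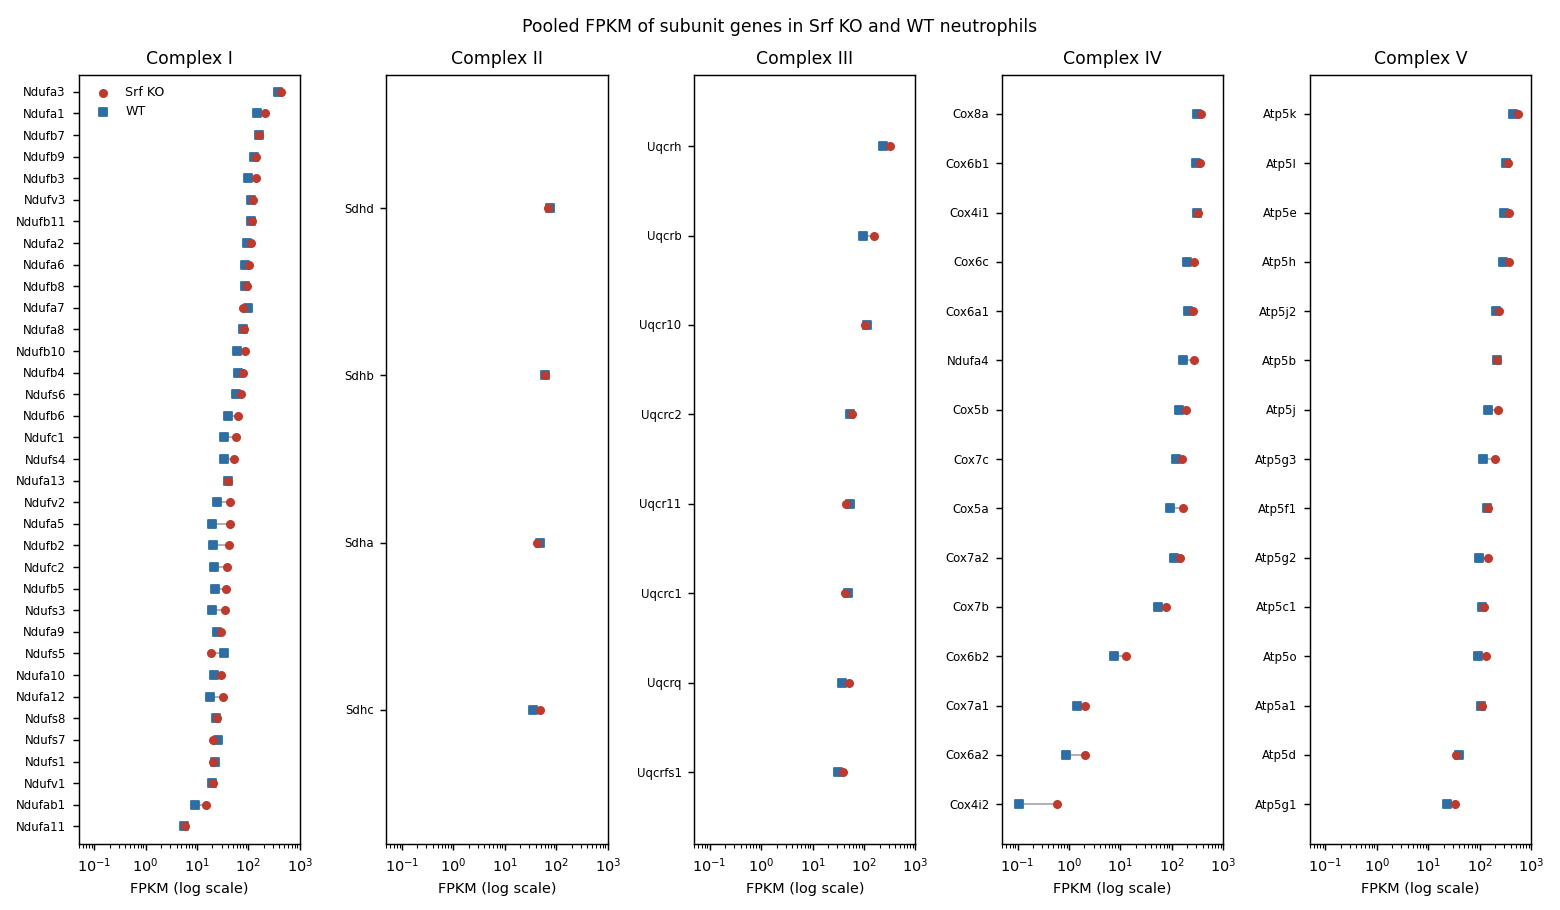
Pooled FPKM of the subunit genes in Srf KO and in WT, by complex, on a logarithmic axis. Most subunits lie between 10 and 1000 FPKM in both genotypes, with Atp5k the highest (565 FPKM in Srf KO, 441 in WT) and Cox4i2 the lowest (0.589 and 0.105).

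**Figure D3:**
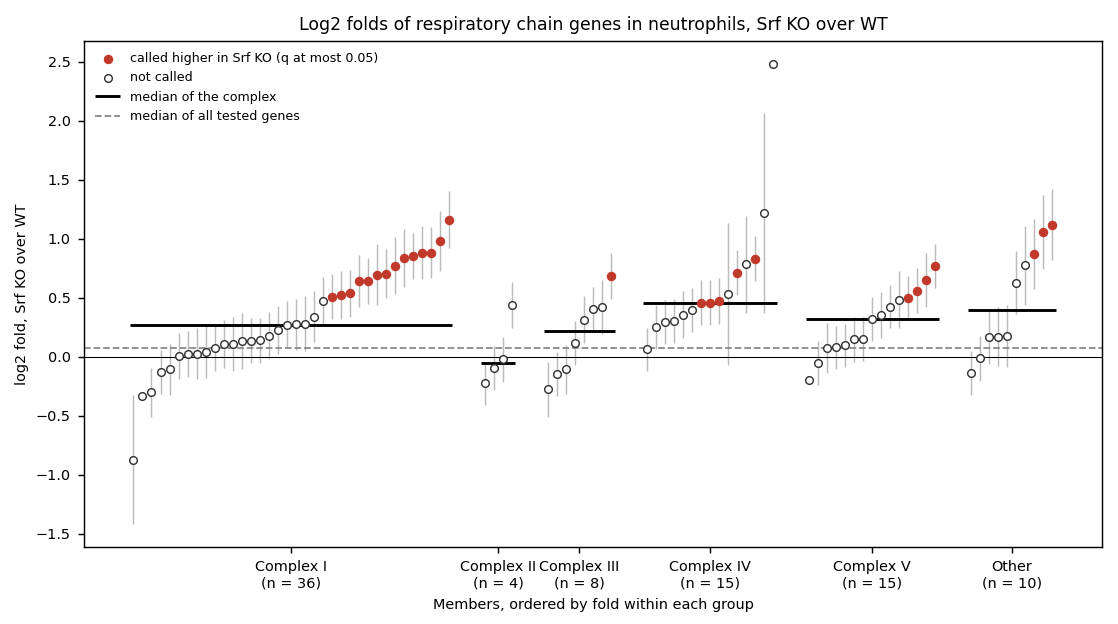
Log2 fold (Srf KO over WT) of each gene by complex, with the implied standard error as a bar and called genes filled; Ndufs7, Atp5d and Cox4i2, whose standard error is over 1, are drawn without a bar. All 15 complex IV genes lie above 0, among them the uncalled minor forms Cox4i2, Cox6a2, Cox6b2 and Cox7a1. The 4 complex II genes lie between -0.23 and 0.44.

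Promoters of the genes that carry the largest called changes in complexes I, IV and V are shown with those of the other 2 genes of ATP synthase subunit c, since the 3 subunit c genes encode the same mature protein from different promoters. Each runs 5′ to 3′ from 250 bases before to 50 bases after the RefSeq start site on GRCm38.p6, the assembly of mm10. Capitals mark matches on either strand to the NRF1 motif, a core of the site of nuclear respiratory factor 1 that reads GCGC, any base, then TGCGC, and to CCAAT, the core of the NF-Y site.
Ndufa5, chr6:24527641-24527940, minus strand: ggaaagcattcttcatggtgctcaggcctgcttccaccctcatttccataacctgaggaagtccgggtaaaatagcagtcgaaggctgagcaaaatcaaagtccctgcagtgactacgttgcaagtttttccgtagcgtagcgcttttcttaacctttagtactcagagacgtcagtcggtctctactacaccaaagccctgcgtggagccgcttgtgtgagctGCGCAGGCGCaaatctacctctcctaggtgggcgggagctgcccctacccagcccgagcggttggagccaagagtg
Cox5a, chr9:57520982-57521281, plus strand: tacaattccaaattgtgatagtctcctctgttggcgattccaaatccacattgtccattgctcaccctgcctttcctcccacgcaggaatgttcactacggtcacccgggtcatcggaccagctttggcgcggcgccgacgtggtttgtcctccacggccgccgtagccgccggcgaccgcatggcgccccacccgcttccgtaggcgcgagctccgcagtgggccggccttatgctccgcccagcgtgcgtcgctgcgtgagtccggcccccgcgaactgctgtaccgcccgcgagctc
Atp5g3, chr2:73911277-73911576, minus strand: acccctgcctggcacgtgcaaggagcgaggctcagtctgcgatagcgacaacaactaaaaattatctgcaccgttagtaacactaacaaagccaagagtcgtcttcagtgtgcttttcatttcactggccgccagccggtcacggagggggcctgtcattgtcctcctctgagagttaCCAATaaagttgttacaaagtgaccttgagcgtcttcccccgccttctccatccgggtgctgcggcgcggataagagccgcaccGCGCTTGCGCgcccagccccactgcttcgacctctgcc
Atp5g2, chr15:102670998-102671297, minus strand: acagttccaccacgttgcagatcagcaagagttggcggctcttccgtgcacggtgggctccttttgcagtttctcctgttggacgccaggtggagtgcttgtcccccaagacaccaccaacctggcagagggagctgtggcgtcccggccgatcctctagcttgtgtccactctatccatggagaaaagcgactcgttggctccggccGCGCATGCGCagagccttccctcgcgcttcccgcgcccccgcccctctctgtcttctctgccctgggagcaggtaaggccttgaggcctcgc
Atp5g1, chr11:96075582-96075881, minus strand: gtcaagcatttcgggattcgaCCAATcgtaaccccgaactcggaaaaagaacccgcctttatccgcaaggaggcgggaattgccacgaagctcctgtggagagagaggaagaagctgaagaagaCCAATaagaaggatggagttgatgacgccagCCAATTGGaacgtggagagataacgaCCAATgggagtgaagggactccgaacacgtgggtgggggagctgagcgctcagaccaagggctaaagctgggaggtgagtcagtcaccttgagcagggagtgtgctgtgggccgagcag
The Ndufa5 and Atp5g2 windows each hold the NRF1 motif at 1 place, Atp5g3 holds that motif and 1 CCAAT, Cox5a holds neither, and Atp5g1 holds 5 CCAAT matches of which 2 overlap on opposite strands. A window was found for 65 of the 78 subunit genes.

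The NRF1 motif, searched on both strands like the others, was in 17 of these 65 promoters (26.2%), against 11.4% of 9926 tested genes with a window of the same length. AAGATGGCG, a YY1 core, was in 10.8% of subunit promoters and 3.60% of those of tested genes. CCGGAAG, an ETS core as bound by GABP, was in 24.6% of subunit promoters and 20.3% of those of tested genes, and CCAAT in 43.1% and 43.6%. The CArG box, to which serum response factor binds, was in 0 of the 65 and in 1.72% of tested genes. Split by call, 4 of the 22 promoters of genes called higher held the NRF1 motif (18.2%), against 13 of the 43 of genes not called (30.2%). Median GC content was 58% over the 70 windows of these subunit genes and 52.7% over all 32851 windows, and the NRF1 motif is mostly G and C. Those 32851 windows include genes that were not tested, and GC content was not computed for the tested genes alone. A gene with several windows was counted if any of them matched. These are matches of letters in a window, and no test of the shares was made.

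Complex I, NADH dehydrogenase, holds 36 of the 88 genes and supplied 14 of the 27 called. By the authors' deposited table, 14 of its 36 genes were called higher in Srf KO and 0 lower (15 and 0 at an unadjusted p under 0.05), with a median log2 fold of 0.27. The 38.9% called higher stands beside 17.7% over all tested genes. After the length adjustment 4 of the 36 were called higher and 1 lower, with a median of -0.07. The shares over all tested genes were then 14.5% higher and 18.5% lower, both above those of complex I. The accessory subunits, which surround the catalytic core, had 12 of 29 called higher and a median of 0.28. The core subunits, which carry the flavin and iron-sulfur clusters, had 2 of 7 called higher and a median of 0.03. The median transcript was 680 bases for the accessory subunits and 1623 for the core. Their median log2 folds after the length adjustment were -0.03 and -0.19.

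Ndufa5, an accessory subunit of the peripheral arm encoded on chromosome 6 at 24518666 to 24527687 (mm10), had 44.3 FPKM in Srf KO and 19.8 FPKM in WT. This was the largest called fold of any subunit in the authors' deposited table, 2.24-fold or 1.16 ± 0.24 on the log2 scale with a q-value of 1.52e-05. Ndufb2, of the membrane arm, had 41.3 FPKM in Srf KO and 20.9 FPKM in WT in the authors' deposited table, a log2 fold of 0.98 ± 0.25 (q-value 0.000722). Both rose close to 2-fold, and both are of middling abundance for complex I. The core subunit Ndufs3 had 35.7 FPKM in Srf KO and 19.4 FPKM in WT in the authors' deposited table, a log2 fold of 0.88 ± 0.21 (q-value 0.000340). Ndufc2, an accessory subunit of the membrane arm, had 39.1 FPKM in Srf KO and 21.2 FPKM in WT in the authors' deposited table, a log2 fold of 0.88 ± 0.23 (q-value 0.000695). The other called core subunit was Ndufv2, which carries an iron-sulfur cluster in the NADH-binding module, with 44.8 FPKM in Srf KO and 24.9 FPKM in WT and 0.85 ± 0.20 as the log2 fold from the authors' deposited table.

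The remaining called genes of complex I were Ndufa12, Ndufc1, Ndufb5, Ndufab1, Ndufs4, Ndufb6, Ndufb3, Ndufb10 and Ndufa1, with log2 folds between 0.51 and 0.84. Ndufab1, the mitochondrial acyl carrier protein that also serves fatty acid synthesis, had 14.7 FPKM in Srf KO and 9.04 FPKM in WT. Both Ndufc genes were called, 5 of 10 Ndufb genes, 4 of 13 Ndufa genes, 2 of 8 Ndufs genes and 1 of 3 Ndufv genes. The most abundant gene, Ndufa3, was not among them: it had 422 FPKM in Srf KO and 384 FPKM in WT, with 0.14 ± 0.19 as the log2 fold from the authors' deposited table. Of the other core subunits, Ndufs1 had a log2 fold of -0.11, Ndufs8 0.03 and Ndufv1 0.11.

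Shared loci blur 12 of the 88 genes, for the library kit does not keep the strand of a transcript. Of the 76 genes on a locus of their own, 26 were called higher and 0 lower with a median log2 fold of 0.38 (background among tested genes on their own locus 19.6% and 19.0%), and of the 12 that share a locus 1 was called, with a median of 0.04. The lowest value of complex I was of this kind: Ndufs5 had 18.3 FPKM in Srf KO and 33.5 FPKM in WT, a log2 fold of -0.87 ± 0.55 that was not called (q-value 0.210 in the authors' deposited table). The gene at its locus, BC002163, had 43.6 FPKM in Srf KO and 34.0 FPKM in WT, and reads of the 2 genes cannot be told apart where they overlap. Ndufs7 and the complex V gene Atp5d lie in a region that the authors' table merges with 44 other genes. Their standard errors are 3.70 and 2.52 on the log2 scale, which leaves their folds of -0.33 and -0.19 without information.

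Complex II, succinate dehydrogenase, is also an enzyme of the citric acid cycle. None of its 4 genes was called (1 was higher and 0 lower at an unadjusted p under 0.05). Over all tested genes 35.5% were called in either direction. Sdha, the flavoprotein, had 42.0 FPKM in Srf KO and 49.1 FPKM in WT, a log2 fold of -0.23 with a 95% interval from -0.59 to 0.13. Sdhb, the iron-sulfur subunit, had 60.6 FPKM in Srf KO and 61.4 FPKM in WT (-0.02 ± 0.19). The membrane anchor Sdhd had 70.6 FPKM in Srf KO and 75.3 FPKM in WT (-0.09 ± 0.19). The other anchor, Sdhc, stood apart with 48.4 FPKM in Srf KO and 35.8 FPKM in WT, a log2 fold of 0.44 ± 0.20 and a q-value of 0.0670 in the authors' deposited table. The medians of complexes I, III, IV and V were 0.27, 0.22, 0.46 and 0.32. The 95% interval of Sdhc, from 0.05 to 0.82, takes in all of them. That of Sdhb reaches up to 0.36 and takes in those of complexes I, III and V but not IV. The interval of Sdhd reaches up to 0.2735. It takes in the median of complex III and, narrowly, that of complex I (0.2727), but not those of complexes IV and V. That of Sdha takes in none of them. These are intervals of single genes and no test between complexes. The median transcript was 2065.5 bases in complex II, 955 in complex III and 618 in complex IV.

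In complex III, cytochrome bc1, 1 of 8 genes was called higher and 0 lower (2 and 0 at an unadjusted p under 0.05). The 12.5% called higher is below the 17.7% over all tested genes. The median log2 fold was 0.22. After the length adjustment it was 0.01, with Uqcr11 called lower in place of Uqcrb higher. Uqcrb, which lies at the ubiquinone site, had 154 FPKM in Srf KO and 95.8 FPKM in WT, a log2 fold of 0.69 ± 0.20 with a q-value of 0.00297 in the authors' deposited table. Uqcrh, the hinge protein that holds cytochrome c1 and the most abundant gene of the complex, had 315 FPKM in Srf KO and 237 FPKM in WT (0.41 ± 0.19, q-value 0.0725 in the authors' deposited table). Of the catalytic and core parts Uqcrfs1, the Rieske iron-sulfur protein, had a log2 fold of 0.31, Uqcrc1 -0.15 and Uqcrc2 0.12. Among the small subunits Uqcrq had 0.42, Uqcr10 -0.11 and Uqcr11 -0.28.

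Complex IV, cytochrome c oxidase, had the highest median log2 fold of the complexes, 0.46, and all 15 of its genes lay above 0. The genes above this median include minor tissue forms at low level. These are Cox4i2 (2.48 ± 1.08), Cox6a2 (1.21 ± 0.85), Cox6b2 (0.78 ± 0.41) and Cox7a1 (0.53 ± 0.60), and none of them was called. By the authors' deposited table, 5 of the 15 genes were called higher and 0 lower (7 and 0 at an unadjusted p under 0.05). The 33.3% called higher stands beside 17.7% over all tested genes. Of the 15, 1 was called after the length adjustment, 0 with lengths inside the locus, and 2 after centring or with expression adjusted too. Cox5a, a matrix-facing subunit, had 166 FPKM in Srf KO and 93.5 FPKM in WT, a log2 fold of 0.83 ± 0.19 with a q-value of 0.000128 in the authors' deposited table. Ndufa4 had 267 FPKM in Srf KO and 163 FPKM in WT, a log2 fold of 0.71 ± 0.19 (q-value 0.00121 in the authors' deposited table). Cox7b, a small membrane subunit encoded on the X chromosome, had 75.3 FPKM in Srf KO and 54.2 FPKM in WT, a log2 fold of 0.47. Cox6c, another membrane subunit, had 268 FPKM in Srf KO and 195 FPKM in WT. Cox5b, the zinc-binding subunit, had 191 FPKM in Srf KO and 139 FPKM in WT (q-value 0.0464 in the authors' deposited table, close to the threshold). The called genes thus include high-level ones, and the 2 most abundant uncalled ones had smaller folds: Cox8a had 370 FPKM in Srf KO and 311 FPKM in WT (0.25 ± 0.19), and Cox6b1 had 358 and 290 FPKM (0.30 ± 0.19).

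Several complex IV subunits exist as a ubiquitous form and a form best known from muscle, lung or testis, and the ubiquitous form made up nearly all of the RNA here. Cox4i2, known from lung, had 0.589 FPKM in Srf KO and 0.105 FPKM in WT, 0.184% of the Cox4i pair in Srf KO and 0.0344% in WT. Its log2 fold of 2.48 ± 1.08 was the largest of all 88 genes and was not called (q-value 0.0585 in the authors' deposited table). Its partner Cox4i1 had 320 FPKM in Srf KO and 306 FPKM in WT (0.06 ± 0.18). The muscle form Cox6a2 had 2.02 FPKM in Srf KO and 0.871 FPKM in WT, and Cox6a1 had 254 and 207 FPKM. Cox6b2, known from testis, had 12.8 FPKM in Srf KO and 7.42 FPKM in WT, 3.44% of the Cox6b pair in Srf KO and 2.49% in WT, the largest share of a minor form. The muscle form Cox7a1 had 2.08 FPKM in Srf KO and 1.44 FPKM in WT, and Cox7a2 had 145 and 111 FPKM. None of these 4 minor forms was called.

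In complex V, the ATP synthase, 4 of 15 genes were called higher and 0 lower (6 and 0 at an unadjusted p under 0.05). The 26.7% called higher stands beside 17.7% over all tested genes. The median log2 fold was 0.32. After the length adjustment 0 were called and the median was 0.01. The called genes were all of the membrane sector and stalk, with 4 of 10 called and a median of 0.46. The catalytic F1 head had 0 of 5 called, 0 at an unadjusted p under 0.05 in either direction, and a median of 0.10. Of these 5, Atp5d has a standard error of 2.52. The median transcript was 722.5 bases for the membrane sector and stalk and 1166 for the head. Their median log2 folds after the length adjustment were 0.10 and -0.19. Atp5g3, a gene of subunit c, whose ring carries protons through the membrane, had 200 FPKM in Srf KO and 117 FPKM in WT, a log2 fold of 0.77 ± 0.19 with a q-value of 0.000381 in the authors' deposited table. Atp5j, coupling factor 6 of the stalk, had 224 FPKM in Srf KO and 143 FPKM in WT, a log2 fold of 0.65 ± 0.23 (q-value 0.0163 in the authors' deposited table); its locus overlaps Gabpa, which had 10.2 FPKM in Srf KO and 11.95 FPKM in WT. Atp5g2 had 145 FPKM in Srf KO and 98.3 FPKM in WT (0.56 ± 0.19). Atp5o, the stalk subunit that confers oligomycin sensitivity, had 130 FPKM in Srf KO and 92.0 FPKM in WT (0.50 ± 0.19).

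The 3 subunit c genes kept similar shares while their sum was larger in Srf KO. Together they had 377 FPKM in Srf KO and 239 FPKM in WT. Atp5g3 made up 52.9% of this in Srf KO and 49.0% in WT, Atp5g2 38.4% and 41.1%, and Atp5g1 8.70% and 9.82%. Atp5g1 itself had 32.8 FPKM in Srf KO and 23.5 FPKM in WT, a log2 fold of 0.48 ± 0.24 that was not called (q-value 0.108 in the authors' deposited table). Of its 2 start sites, 1 had 27.1 FPKM in Srf KO and 17.8 FPKM in WT (0.61 ± 0.30), and the other 5.72 and 5.66 FPKM (0.02 ± 1.08); neither was called. The 3 genes encode the same mature protein and have processed copies in the genome, so reads could be shared among them.

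The head of the ATP synthase showed small folds on abundant genes. Atp5a1, the alpha subunit, had 112 FPKM in Srf KO and 105 FPKM in WT (0.10 ± 0.18). Atp5b, the catalytic beta subunit, had 214 FPKM in Srf KO and 221 FPKM in WT (-0.05 ± 0.19). Atp5c1, the gamma shaft, had a log2 fold of 0.15 and Atp5e 0.32. The most abundant gene of the complex and of the whole set was Atp5k, subunit e of the membrane sector, with 565 FPKM in Srf KO and 441 FPKM in WT (0.36 ± 0.19, q-value 0.139 in the authors' deposited table).

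Among the 10 genes outside the complexes 3 were called higher and 0 lower (5 and 0 at an unadjusted p under 0.05). The 30% called higher stands beside 17.7% over all tested genes. Ndufaf4, an assembly factor of complex I, had 1.25 FPKM in Srf KO and 0.573 FPKM in WT, a log2 fold of 1.12 ± 0.30 with a q-value of 0.00126 in the authors' deposited table. Atp5s, named for a coupling factor of the ATP synthase, had 2.61 FPKM in Srf KO and 1.25 FPKM in WT (1.06 ± 0.31), and Sdhaf1, an assembly factor of complex II, had 5.84 and 3.19 FPKM (0.87 ± 0.30). Their levels are below those of most subunits. Ndufaf1 and Ndufaf2, further assembly factors of complex I, had log2 folds of 0.63 and 0.77 and missed the threshold with q-values of 0.0510 and 0.0537 in the authors' deposited table. Cox7a2l, which helps complexes III and IV to associate, had 99.9 FPKM in Srf KO and 110 FPKM in WT (-0.14 ± 0.19).

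The X chromosome carries 3 of the subunit genes: Ndufa1, with 210 FPKM in Srf KO and 147 FPKM in WT, Cox7b, and Ndufb11, with 120 and 111 FPKM. The first of these and Cox7b were called higher, and Ndufb11 was not (0.11 ± 0.23). Xist, transcribed from the inactive X of females, had 4.92 FPKM in Srf KO and 0.0154 FPKM in WT in the authors' deposited table. The sex of the animals is not in the labels, so sex and genotype cannot be told apart, for genes on the X and for the others alike.

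The tables of isoforms, start site groups and coding sequences gave the same direction, from the same reads. Of 96 tested isoforms of the set 24 were called higher and 0 lower, against a background of 13.1% and 14.0%. Start site groups had 26 of 90 called higher and 0 lower (background 15.1% and 16.1%), and coding sequences 25 of 90 and 0 (background 14.4% and 15.8%). No feature was called where its gene was not. Ndufv3 had 2 tested coding sequences that leaned opposite ways without a call, 113 FPKM in Srf KO and 98.9 FPKM in WT for 1 (0.20) and 10.02 and 13.4 FPKM for the other (-0.42).

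Other lists of mitochondrial energy metabolism are given by their counts beside the background of 17.7% higher and 17.8% lower over all tested genes; no test of a list was made. Of 12 chain components with other names 6 were called higher and 0 lower, with a median log2 fold of 0.47. They include Cycs, cytochrome c, with 29.1 FPKM in Srf KO and 17.7 FPKM in WT (0.72 ± 0.19), Slc25a4, an ADP/ATP carrier (0.89 ± 0.24), and Etfa, of the electron transfer flavoprotein (0.73 ± 0.20). Mitochondrial protein import, through which all these subunits enter the organelle, had 10 of 22 called higher, 0 lower and a median of 0.68, led by Pam16 (1.24 ± 0.25), Timm9 (1.15 ± 0.43) and Timm8a1 (1.14 ± 0.26). Assembly factors with other names had 1 of 23 called (4.35%), a smaller share than the background: Cox16 (0.87 ± 0.24). At an unadjusted p under 0.05, 5 of the 23 were higher (21.7%) and 0 lower, against 23.3% higher over all tested genes. The assembly factors had a median of 0.35, at a median standard error of 0.26 and a median level of 4.61 FPKM in Srf KO. Coenzyme Q synthesis had Coq3 (0.83 ± 0.32), Coq2 (0.80 ± 0.23) and Coq7 (0.73 ± 0.28) called higher and Adck4 (-0.61 ± 0.23) lower, of 13; the 23.1% higher is close to the background. In the citric acid cycle and pyruvate dehydrogenase list 5 of 18 were called higher and 0 lower, with Suclg2 (1.07 ± 0.24), Idh3a (0.85 ± 0.22) and Fh1 (0.65 ± 0.21) at the top and a median of 0.19. After the length adjustment these medians were 0.16 for chain components, 0.36 for import, 0.18 for assembly factors, 0.13 for coenzyme Q and 0.04 for the citric acid cycle.

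Regulators of mitochondrial genes were divided. Of 16 tested, 5 were called higher, led by Myc with 6.31 FPKM in Srf KO and 2.85 FPKM in WT (1.15 ± 0.30), Ssbp1, which binds single-stranded mitochondrial DNA (0.98 ± 0.27), and Tfb2m, a mitochondrial transcription factor (0.81 ± 0.25). The 1 called lower was Nrf1, the gene of nuclear respiratory factor 1, with 11.3 FPKM in Srf KO and 17.3 FPKM in WT, a log2 fold of -0.62 ± 0.23 with a q-value of 0.0229 in the authors' deposited table. Glycolysis had 6 of 16 called lower and 0 higher (8 and 0 at an unadjusted p under 0.05), with a median log2 fold of -0.40; 9 of the 16 have 100 FPKM or more on average, a level at which 30.5% of all tested genes were called lower. Slc2a1, a glucose transporter, had 6.24 FPKM in Srf KO and 19.5 FPKM in WT (-1.64 ± 0.21). Hk3, a hexokinase, had 139 FPKM in Srf KO and 262 FPKM in WT (-0.92 ± 0.23), and Slc2a3, another glucose transporter, had 147 and 277 FPKM (-0.91 ± 0.19). The median of the glycolysis list was -0.52 after the length adjustment and -0.25 after the adjustment for length and level.

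**Figure D4:**
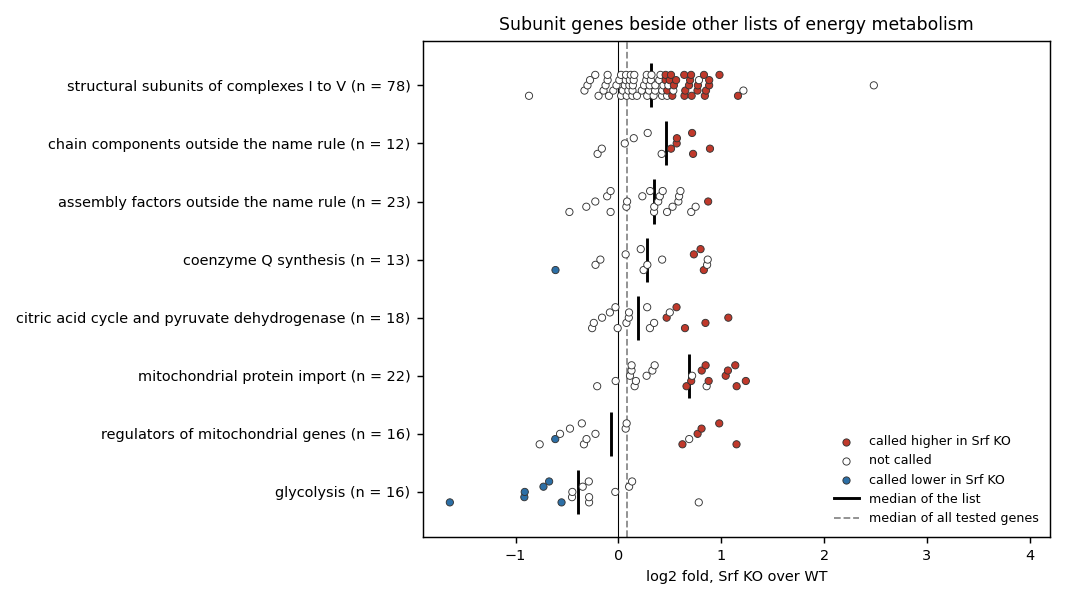
Log2 fold (Srf KO over WT, horizontal axis) of each tested gene in the subunit set and in 7 other lists of energy metabolism, with called genes coloured by direction and a bar at each median. Protein import has the highest median (0.68) and glycolysis the lowest (-0.40); the dashed line is the median of all tested genes (0.08).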

How the data were processed

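Libraries of 2 Srf KO and 2 WT samples were made with the TruSeq RNA v2 kit, which the labels' protocols name. CASAVA 1.8.1, TopHat2 2.0.0, Cufflinks 2.0.0 and mm10 are named per the submitters' processing notes; settings are not given in the sources used here. Expression was deposited by the authors as 1 FPKM value per genotype, so depth is unknown. The log2 fold deposited by the authors sets WT over KO, per the file headers; its sign was turned here. The authors' test statistic is a score, and the p-value and q-value are theirs. In all 4 tables the p-value was checked to equal a two-sided normal tail of that statistic, the q-value its Benjamini-Hochberg adjustment over tested rows, and a call a q-value of at most 0.05.

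A test on values per sample was planned; with pooled values the authors' Cufflinks test is the main result, and its p-values cover only the variation that test models. The standard error was taken as the size of the log2 fold over that of the statistic, available for 12552 genes. Members, gene lists and tests were chosen with earlier results of these data known. Genes are named by a rule: in each complex the most abundant and the 4 with the largest called folds, all of complex II, isoform pairs, the Atp5g genes, and up to 3 called genes per direction of each other list; Ndufv2, Ndufab1, Cox6b1, and other genes outside it were chosen after their values were seen. Transcript lengths came from GENCODE M21 for 12404 genes, as the whole transcript or, in an added alternative, as its exon bases inside the deposited locus; the adjusted fold is the fold minus its running median over 50 length bins smoothed over 5, with p-values recomputed from the same standard errors. The values of 1 gene are not reported here, though it is included in every count. Promoters are RefSeq windows of 300 bases. Alternatives were thresholds of 0.01 and 0.10, a 1.5-fold minimum, filters at 1 and 5 FPKM, a pseudocount of 1, centring, the other tables and genes on their own locus. Tools were numpy 2.4.6, scipy 1.17.1, pandas 2.3.3 and matplotlib 3.10.9 under Python 3.11.15.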

Additional observations from a re-analysis of the deposited data

How the results depend on the processing

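No paired analysis was possible because the tables hold 1 pooled value per genotype; for the same reason no sample could be left out in turn. At a q-value of at most 0.01, 15 members were called higher, 9 in complex I, 2 in complex IV and 1 in complex V. At 0.10, 1 gene was called in complex II and 2 in complex III. With a 1.5-fold minimum 2 were called in complex IV and 2 in complex V. After the length adjustment 7 members were called higher and 3 lower, with 5 calls in complex I, 1 in complex IV and 0 in complex V. The median log2 fold was then 0.01 over the members (0.0132), -0.0708 in complex I, where it turned negative, -0.32 in complex II, 0.00713 in complex III, 0.10 in complex IV and 0.00503 in complex V. With lengths counted inside the deposited locus 5 members were called higher and 3 lower, with 4 calls in complex I, 0 in complex IV and 0 in complex V; the medians were 0.0149 over the members, -0.0941 in complex I, -0.31 in complex II, -0.00642 in complex III, 0.0908 in complex IV and 0.0145 in complex V, so those of complexes I and III turned negative. With that length and expression 2 were called in complex IV. After the adjustment for length and expression 1 gene was called in complex II and 2 in complex IV, and after centring on all tested genes 2 in complex IV. In the other lists, after the length adjustment, 7 import genes, 4 citric acid cycle genes, 4 regulators, 2 chain components, 1 assembly factor and 1 coenzyme Q gene were called higher, and 10 glycolysis genes, 2 regulators, 1 assembly factor and 1 coenzyme Q gene lower. After length and expression, 8 import genes, 5 chain components, 4 regulators, 3 citric acid cycle genes, 1 assembly factor and 1 coenzyme Q gene were higher, and 4 glycolysis genes, 1 regulator, 1 assembly factor and 1 coenzyme Q gene lower. After centring, 10 import genes, 4 chain components, 4 regulators, 3 citric acid cycle genes, 2 coenzyme Q genes and 1 assembly factor were higher, and 8 glycolysis genes, 3 regulators and 1 coenzyme Q gene lower. The tested genes of these lists number 22 for import, 18 for the citric acid cycle, 16 for regulators and 16 for glycolysis. There are 12 chain components, 23 assembly factors and 13 coenzyme Q genes. Over all tested genes 14.5% were higher and 18.5% lower after the length adjustment, and 12.7% and 15.2% after length and expression. With centring the shares were 14.5% and 20.5%. The 1 assembly factor called higher is below each of these shares. Fewer calls follow from the construction of stricter thresholds. For the adjustments the cause was not tested. The adjusted calls per complex and for the other lists, the lengths inside the locus, and the values without members of standard error over 1, were chosen after seeing the data. The filters at 1 and 5 FPKM, the pseudocount, the other feature tables and the restriction to unshared loci kept every count of members within 1.5 times and every median within the median standard error of a member, 0.20. No gene that was called in both the deposited and an adjusted result changed its direction.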
